A study of Homo sapiens with 5 samples.

Results

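Long noncoding RNA (lncRNA) genes were described in 5 libraries made from RNA of a pair of human lung cancer cell lines. Members were the GENCODE v44 genes of type lncRNA with at least 10 reads in at least 2 of the 5 libraries, leaving out the small nucleolar RNA host genes and a set of much-described cancer lncRNAs (MALAT1, NEAT1, H19 and others) by name. Of 18866 annotated lncRNA genes, 7361 had at least 1 read, 1238 passed the read minimum and 1203 were members, beside 11963 protein-coding genes that passed the same minimum. The threshold cut through a dense region, since 96 members had exactly 10 reads in their second highest library (median of 40 reads in total) and 100 lncRNA genes just outside had 9 (median of 36 reads).

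Both lines, NCI-H1975 and HCC827, are established lines of lung adenocarcinoma, grown in RPMI medium with fetal calf serum. NCI-H1975 RNA carried sequins mix A and HCC827 RNA carried sequins mix B, which are synthetic spike-in transcripts. Mixing set the HCC827 part of the RNA mass at 0, 25, 50, 75 or 100%, and libraries carry the mass ratio as a name, with NCI-H1975 first (100:0 to 0:100). Each ratio had 1 library of poly(A)-selected, PCR-amplified cDNA read on a nanopore PromethION, and all 5 libraries used 1 RNA preparation per line. The p-values below therefore measure only scatter among these libraries, and not differences between cultures. Totals ran from 2932250 to 4058751 reads. Epithelial markers (EPCAM, CDH1 and 4 keratins) summed to 18924 reads in pure NCI-H1975 and 42477 in pure HCC827. The lung lineage genes NKX2-1, NAPSA and SFTPB had 148 and 999 reads, and endothelial markers had 2 to 4 reads in any library. Of 3 leukocyte markers 2 were at 0 throughout and the list summed to 192 to 302 reads, and of 3 fibroblast markers 1 was at 0 and the list summed to 534, 508, 353, 166 and 20 reads from the 100:0 to the 0:100 library.

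lncRNAs are transcripts that are not known to be translated. Many are spliced and polyadenylated like messenger RNAs, some begin at the start region of a coding gene and run the other way, some lie across a coding gene on the opposite strand, and some are the precursors of microRNAs. Few have a known function, and their levels are often restricted to particular cell types.

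Several microRNA host genes changed along the mixing series, and the mature microRNAs that lie within the named hosts are shown because they tie each host to a known regulator. The libraries measured polyadenylated host RNA, not mature microRNAs. Sequences are from RefSeq (GRCh38.p14), 5′ to 3′, with the seed (bases 2 to 8) in capitals. MIR200CHG spans miR-200c and miR-141, whose seeds differ, MIR497HG spans miR-497 and miR-195, which share a seed, and MIR9-1HG and MIR9-3HG give the same mature miR-9-5p. MIR4458HG, MIR100HG, MIRLET7A1HG and MIRLET7BHG all hold a microRNA with the let-7 seed.
hsa-miR-200c-3p in MIR200CHG: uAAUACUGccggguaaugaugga
hsa-miR-141-3p in MIR200CHG: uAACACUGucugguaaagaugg
hsa-miR-497-5p in MIR497HG: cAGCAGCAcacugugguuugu
hsa-miR-195-5p in MIR497HG: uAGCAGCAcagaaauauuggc
hsa-miR-9-5p in MIR9-1HG and MIR9-3HG: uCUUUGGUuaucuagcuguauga
hsa-miR-205-5p in MIR205HG: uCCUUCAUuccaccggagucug
hsa-miR-210-3p in MIR210HG: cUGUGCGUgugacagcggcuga
hsa-let-7a-5p in MIR100HG: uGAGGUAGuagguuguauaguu
hsa-miR-4458 in MIR4458HG: aGAGGUAGguguggaagaa

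Start regions are shown for a pair of lncRNAs with 0 reads in the NCI-H1975 library and for the 3 host genes with the lowest adjusted p, because they differ in CpG content. Each window runs from 250 bases before to 50 bases after the RefSeq start, read along the gene's strand, with CpG dinucleotides in capitals. No protein-coding exon lies in these 5 windows. The RefSeq start of MIR9-1HG lies 34994 bases from the start of the gene in GENCODE v44.
LINC01980, chr3:27797338-27797637 (plus strand): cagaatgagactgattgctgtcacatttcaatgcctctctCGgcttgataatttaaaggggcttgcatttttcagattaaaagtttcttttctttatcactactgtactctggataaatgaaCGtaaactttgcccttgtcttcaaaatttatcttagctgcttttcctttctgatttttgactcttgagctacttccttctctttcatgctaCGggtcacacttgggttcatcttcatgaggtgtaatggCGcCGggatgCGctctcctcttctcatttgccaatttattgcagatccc
RASSF3-DT, chr12:64609417-64609716 (minus strand): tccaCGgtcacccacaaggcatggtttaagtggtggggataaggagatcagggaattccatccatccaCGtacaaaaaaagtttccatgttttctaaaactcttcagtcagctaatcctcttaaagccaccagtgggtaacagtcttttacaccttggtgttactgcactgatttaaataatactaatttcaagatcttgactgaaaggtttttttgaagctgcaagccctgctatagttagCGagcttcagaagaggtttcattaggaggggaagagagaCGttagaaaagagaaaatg
MIR200CHG, chr12:6962995-6963294 (plus strand): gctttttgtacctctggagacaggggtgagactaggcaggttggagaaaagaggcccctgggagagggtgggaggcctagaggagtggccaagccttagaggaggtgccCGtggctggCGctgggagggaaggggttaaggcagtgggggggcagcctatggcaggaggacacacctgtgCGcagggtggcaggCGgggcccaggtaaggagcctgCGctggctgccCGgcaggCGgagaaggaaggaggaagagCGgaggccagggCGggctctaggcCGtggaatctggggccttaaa
MIR205HG, chr1:209428570-209428869 (plus strand): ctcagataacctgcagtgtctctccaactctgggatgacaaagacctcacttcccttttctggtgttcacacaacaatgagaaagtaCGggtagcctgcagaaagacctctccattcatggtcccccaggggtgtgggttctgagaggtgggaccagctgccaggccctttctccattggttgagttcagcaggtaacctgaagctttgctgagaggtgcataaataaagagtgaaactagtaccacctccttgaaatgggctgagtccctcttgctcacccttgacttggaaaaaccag
MIR9-1HG, chr1:156421720-156422019 (minus strand): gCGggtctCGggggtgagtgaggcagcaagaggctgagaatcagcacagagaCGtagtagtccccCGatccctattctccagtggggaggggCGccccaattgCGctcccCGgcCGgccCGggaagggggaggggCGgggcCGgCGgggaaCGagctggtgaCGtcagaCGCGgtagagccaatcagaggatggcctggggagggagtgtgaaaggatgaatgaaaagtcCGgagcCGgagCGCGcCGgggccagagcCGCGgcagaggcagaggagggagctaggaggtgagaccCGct
The windows held 6, 4, 10, 1 and 24 CpG dinucleotides, an observed to expected ratio of 0.50, 0.32, 0.36, 0.05 and 0.76. Over the 450 members with a RefSeq promoter, 66.2% had a ratio of at least 0.6, against 84.1% of tested protein-coding genes and 49.0% of all 27305 promoters in the table. The share was 91.2% (52 of 57) for members whose start lay beside that of a coding gene. It was 44.1% (64 of 145) for members sharing no exon or start region with a coding gene. For lncRNA genes listed at 0 reads in all libraries it was 18.7%. The letters TATAAA on either strand occurred in 8.2% of member promoters, against 5.3% for tested protein-coding genes and 12% of all promoters.

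The start region between NUDT19-DT and the coding gene NUDT19 is shown because the genes moved in opposite directions. It covers chr19:32691565-32691820 (GRCh38, minus strand, along NUDT19-DT), including the 56 bases between the annotated starts, with its 14 CpG dinucleotides in capitals.
NUDT19-DT start region: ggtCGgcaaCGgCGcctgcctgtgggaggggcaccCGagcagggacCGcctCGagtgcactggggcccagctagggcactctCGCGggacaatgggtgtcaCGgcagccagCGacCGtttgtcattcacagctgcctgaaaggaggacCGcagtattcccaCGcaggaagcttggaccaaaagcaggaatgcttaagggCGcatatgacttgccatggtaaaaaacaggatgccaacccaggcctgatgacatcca

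Poly(A) selection acts at the 3′ end, so the last 50 bases of the transcript with most reads are shown for 4 members, with the polyadenylation hexamer AATAAA or its variant ATTAAA in capitals. NUDT19-DT has neither in this window.
HOTAIRM1 end: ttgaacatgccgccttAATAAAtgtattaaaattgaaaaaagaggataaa
RASSF3-DT end: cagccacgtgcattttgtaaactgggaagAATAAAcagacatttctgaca
ENSG00000287530 end: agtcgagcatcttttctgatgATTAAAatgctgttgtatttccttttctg
NUDT19-DT end: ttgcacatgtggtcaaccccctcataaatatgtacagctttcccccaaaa
The hexamer AATAAA, on the transcript strand, occurred in the last 50 bases for 42.9% of members (516 of 1203), against 65.4% of protein-coding genes and 33.2% of lncRNA genes listed at 0 reads. Neither hexamer occurred in 46.8% of members and 19.4% of protein-coding genes. Member transcripts were shorter, with a median of 1782 against 3265 annotated bases, and had a median of 2 exons against 8. A single exon was annotated for 18.1% of members and 2.2% of protein-coding genes.

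lncRNA genes were a small and unevenly read set. A member had between 24 and 7867 reads over the 5 libraries, with a median of 86, and only 30 members reached 1000 reads. The 10 members with most reads held 17.7% of all member reads. At least 10 reads were present for 971 members in the 100:0 library, 1106 in 75:25, 1050 in 50:50, 861 in 25:75 and 778 in 0:100, and 550 members had them in all 5. Under 10 reads in both the 25:75 and the 0:100 library was found for 247 members, and under 10 reads in both the 100:0 and the 75:25 library for 55. These counts are not scaled for depth, and the same split was not made over all genes. Library sizes after TMM scaling were 3394466, 4316762, 3896655, 2860948 and 2689369 from the 100:0 to the 0:100 library. The split therefore does not measure how many lncRNAs are restricted to either line. Protein-coding genes with at least 10 reads numbered 11474 in the 100:0 library and 10783 in the 0:100 library.

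The members' share of all reads, sequins included, was 1.61% in the 100:0 library, 1.5% in 75:25, 1.43% in 50:50, 1.31% in 25:75 and 1.26% in 0:100. The share was lower at each step towards HCC827, a slope of -0.354 percentage points over the series (two-sided exact permutation test over 120 orders, p = 0.0167, the smallest p that 5 libraries allow; adjusted p = 0.0208 over 5 shares tested). The share is of unscaled library totals, and the TMM scaling factors also fell along the series, at 1.16, 1.06, 1.00, 0.93 and 0.87. Members had 47094 reads against a TMM-scaled size of 3394466 in the 100:0 library. In the 0:100 library they had 38984 against 2689369. Against TMM-scaled sizes the share was therefore not lower at the HCC827 end, and a slope on that scale was not tested. The lines were mixed by RNA mass, so the share is not a level per cell. Bulk RNA does not separate kinds of cells within a line. Without the 100:0, the 50:50 or the 0:100 library the slope was -0.335, -0.354 and -0.388 points, with an exact permutation p of 0.0833 in each case, which is the smallest p these sets of 4 libraries allow. Without the 75:25 or the 25:75 library it was -0.359 and -0.339 points (exact permutation p = 0.0417). Members whose start lay beside a coding gene's start had the steepest relative difference, from 0.0968% to 0.0596% of reads, a ratio of 0.616. Members apart from coding exons and starts went from 0.623% to 0.472%. Those overlapping coding exons went from 0.222% to 0.185% on the same strand and from 0.665% to 0.545% on the opposite strand. Each of the first 3 had an adjusted p of 0.0208 and the last of 0.0333 by the same exact permutation test. Along the same order the share of mitochondrial reads was 5.64, 7.05, 7.99, 8.39 and 8.85%, and the mean annotated transcript length of a read was 2581, 2469, 2363, 2272 and 2180 bases. The summed reads on the fibroblast list given above, where only 1 of 3 markers reached 10 reads, ran in the same direction as the lncRNA share. The part of these measures in the lncRNA share was not tested, but with nuclear genes alone as the total the slope was -0.330 points. The read minimum was met by more members at the NCI-H1975 end, so the choice of members bears on this share. Over all lncRNA genes, with no read minimum, the share was 2.35, 2.21, 2.13, 2.01 and 1.93%. The lncRNA genes left out by name did not follow the order, at 0.419, 0.435, 0.449, 0.466 and 0.449% of reads.

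**Figure D1:**
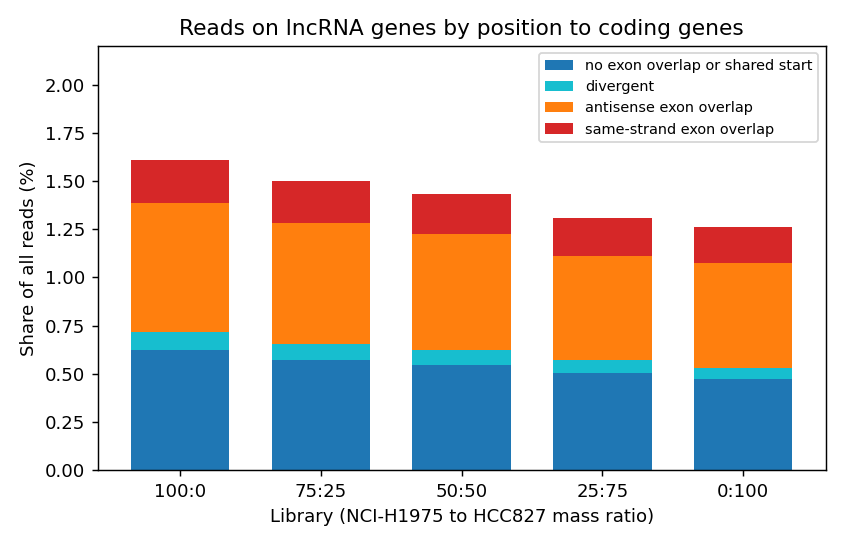
Share of all reads on 1203 lncRNA genes (y axis, percent) in each of the 5 libraries (x axis, ratio of NCI-H1975 to HCC827 by mass), with bars stacked by the position of the gene relative to protein-coding genes. The full bar is lower at each step, from 1.61% to 1.26% of unscaled library totals.

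Each gene was tested for a slope, the fitted log2 difference in level from 0 to 100% HCC827, by the edgeR quasi-likelihood test with Benjamini-Hochberg adjustment over all 13492 genes. Of the 1203 members, 407 passed an adjusted p of 0.05 (33.8%), 186 rising and 221 falling towards HCC827, against 45.8% of all genes and 47.0% of protein-coding genes. The share of called members was thus below the background. Rising calls made up 23.5% and falling calls 22.3% of all genes tested. The median slope was -0.16 over members and -0.03 over protein-coding genes, and the median standard error of a member's slope was 0.556. Leaving out 1 library gave 221 to 397 called members, with 221 without the 0:100 library and 257 without the 100:0 library. Scaling by library totals in place of TMM moved the median slope of all genes from -0.04 to -0.44 and gave 476 called members, of which 25.6% rose, against 45.7% with TMM.

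The share called was higher in most classes of higher read number, for lncRNA genes as for coding genes. Among genes with 50 to 99 reads, 23.0% of 444 members and 28.5% of 1289 protein-coding genes were called. Among genes with 200 to under 500 reads the shares were 50.6% of 172 members and 41.8% of 3319 protein-coding genes, and with 500 to 999 reads 61.0% of 59 and 53.5% of 2357. At 1000 reads or more, 60.0% of 30 members and 67.4% of 2770 protein-coding genes were called. Members apart from coding exons and starts had a higher called share than coding genes in each of the 6 read classes. The shares ran from 29.7% against 28.5% at 50 to 99 reads to 90.9% (10 of 11) against 67.4% at 1000 reads or more. The differences between these shares were not tested.

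**Figure D2:**
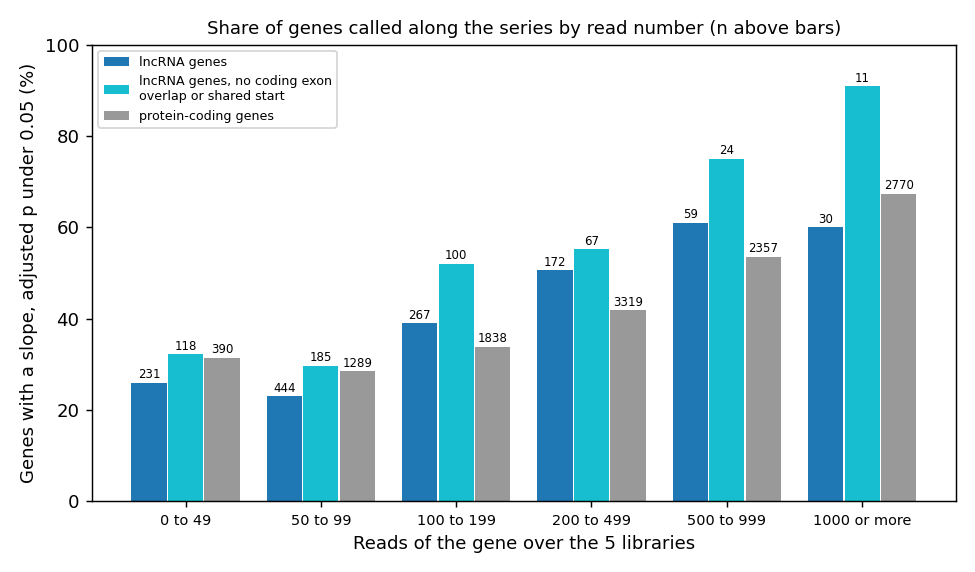
Share of genes with a slope at an adjusted p under 0.05 (y axis, percent) by reads over the 5 libraries (x axis), for all lncRNA members, members apart from coding exons and starts, and protein-coding genes, with the number of genes above each bar. In the class of 200 to under 500 reads the bars stand at 50.6, 55.2 and 41.8%.

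By position, 505 members shared neither exon nor start region with a coding gene, 483 overlapped a coding exon on the opposite strand, 122 on the same strand, and 93 began within 1000 bases of a coding start on the opposite strand. Calls were made for 210 (41.6%), 133 (27.5%), 41 (33.6%) and 23 (24.7%) of them, each below the 45.8% of all genes. The 505 include members that lie within the body of a coding gene, as RASSF3-DT does. Of the 23 divergent members called, 7 rose and 16 fell, and of the 210 apart from coding exons and starts, 93 rose and 117 fell. By name, 53 of 134 LINC genes were called (23 rose, 30 fell), 83 of 252 antisense genes (37 rose, 46 fell) and 34 of 115 divergent transcripts (10 rose, 24 fell). The 513 genes known by an identifier alone made up the largest class, with 86 rising and 82 falling.

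Between the pure libraries, 214 members (17.8%) stood at least 4-fold apart, with libraries under 3 reads taken at 3, against 10.9% of all genes and 10.1% of protein-coding genes. Of these, 99 were higher in HCC827 and 115 in NCI-H1975, where the shares among all genes were 4.97% and 5.98%. The balance turned with a floor of 10 reads (32 higher and 21 lower in HCC827), and scaling by library totals gave 61 higher and 186 lower. By read number the comparison was not of 1 direction: 19.9% of members and 24.9% of protein-coding genes stood 4-fold apart under 50 reads, 19.4% and 24.7% at 50 to 99 reads, and 14.0% and 7.6% at 200 to under 500 reads. Since 144 of the 214 had 3 reads or fewer in 1 pure library, these ratios rest on few reads, and with a floor of 10 reads 53 members remained apart by 4-fold. The 3 mixed libraries were not used in the ratio. All 3 lay between the ends for 176 of the 214 members (82.2%; 88.4% for all genes), and all 5 libraries were in order for 116 (54.2%; 64.5% for all genes). Among the 4-fold members with at least 100 reads, 70.7% were in order.

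The 8 members with the largest ratios among called members in strict order, higher in HCC827, were led by ENSG00000290657 (chr17:18432051-18442895, plus strand). It had 0.295 TMM-scaled CPM, read counts brought to a common library size, in the 100:0 library and 14.4, 28.7, 45.4 and 58.0 in the following 4. It rested on 1 read at one end and 156 at the other, a ratio of 197 (95% exact interval 34.8 to 7826, counting error only), with a slope of 3.57 ± 0.56 (SE; edgeR adjusted p = 2.37e-04). Its leading transcript matched KRT16P3, a keratin 16 pseudogene, at 99.0% identity over its full length, so reads between the copies are uncertain.
ENSG00000286966 (chr1:183613537-183619335, plus strand) rose from 1.77 CPM through 23.9, 40.6 and 65.7 to 84.8 CPM, 48.0-fold (95% exact interval 21.7 to 132). The closest coding gene, ARPC5, an actin-nucleation subunit, had a slope of -0.46, so the neighbours differed in sign.
HOTAIRM1 (chr7:27095647-27100265, plus strand), which lies in the HOXA cluster and was first described in myeloid cells, had 0 reads in the 100:0 library and 45, 81, 96 and 106 in the others. The rise was at least 44.6-fold, with a floor of 3 reads in the empty library and no allowance for counting error in the other, and the slope was 3.48 ± 0.62 (edgeR adjusted p = 5.95e-04). All of the genes named here were chosen for their order over the 5 libraries, so that order is no result.

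The other 5 also had 0 reads in the 100:0 library. RASSF3-DT (chr12:64599078-64609459, minus strand), within the RASSF3 gene region but sharing none of its exons, had 40, 49, 47 and 52 reads in the other libraries, at least 21.9-fold higher in HCC827. RASSF3, a RAS association domain gene, had a slope of -0.45 (edgeR adjusted p = 0.152). LINC01980 (chr3:27797552-27931579, plus strand) had 27, 48, 59 and 61 reads, at least 25.7-fold higher, and its closest tested coding gene, CMC1, lay about 310000 bases away with a slope of -0.19.
The remaining 3 lie on chromosome 8. ENSG00000253706 (chr8:74798784-74866939) was at least 31.6-fold higher, ENSG00000253553 (chr8:88326836-88887573) at least 26.5-fold and ENSG00000253220 (chr8:126497385-126500440) at least 21-fold. ENSG00000253220 lay about 52000 bases from LRATD2, which rose with a slope of 2.40 (edgeR adjusted p = 2.42e-05). By the DESeq2 Wald test ENSG00000253706 and RASSF3-DT were not called (adjusted p = 0.145 and 0.183), while the other 6 were.

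On the same rule 8 members were named as higher in NCI-H1975. ENSG00000291105 (chr16:56617423-56618832, plus strand) lay 6643 bases from the metallothionein gene MT1E and had 84.6, 49.3, 43.6, 21 and 0.372 CPM from the 100:0 to the 0:100 library. It was 227-fold lower in HCC827 (95% exact interval 40.5 to 9012) on 287 reads against 1, with a slope of -3.37 ± 0.55 (edgeR adjusted p = 3.09e-04). MT1E itself had 8366 reads and a slope of -4.28, so the neighbours fell together.
ENSG00000287530 (chr13:23954493-23970188, plus strand) had 190, 155, 94, 45 and 0 reads, at least 50.2-fold lower. LINC01511 (chr5:1353896-1380107, minus strand) had 125, 129, 80, 36 and 1 reads, 99.0-fold lower (95% exact interval 17.5 to 3943). Neither had a neighbour that passed the test: SPATA13 had a slope of 0.48 and CLPTM1L one of 0.27.
CCDC144NL-AS1 (chr17:20868433-21002276) was 45.6-fold lower (95% exact interval 12.3 to 381) and MIR9-1HG (chr1:156404250-156456763) 29.7-fold lower (7.94 to 250), each on 2 reads in the 0:100 library. APCDD1L-DT (chr20:58515379-58619888) had 100, 81, 53, 34 and 0 reads, at least 26.4-fold lower, and its overlapping partner APCDD1L fell with it (slope -3.04, edgeR adjusted p = 0.00176). ENSG00000258949 (chr14:44898908-44911863), in the gene region of C14orf28, had 78, 54, 44, 11 and 0 reads, while C14orf28 had a slope of -0.04.

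NUDT19-DT (chr19:32686918-32691764, minus strand) starts 57 bases from NUDT19, which encodes a coenzyme A diphosphatase, in the start region printed above. It had 104, 85, 69, 28 and 0 reads, at least 27.5-fold lower in HCC827, with a slope of -2.96 ± 0.61 (edgeR adjusted p = 0.00158). NUDT19 had 223 reads and rose, with a slope of 2.26 ± 0.40 (edgeR adjusted p = 6.13e-04). The genes on either side of the same start region therefore ran in opposite directions. By the DESeq2 Wald test NUDT19-DT, ENSG00000287530 and APCDD1L-DT were not called (adjusted p = 0.0977, 0.112 and 0.156).

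**Figure D3:**
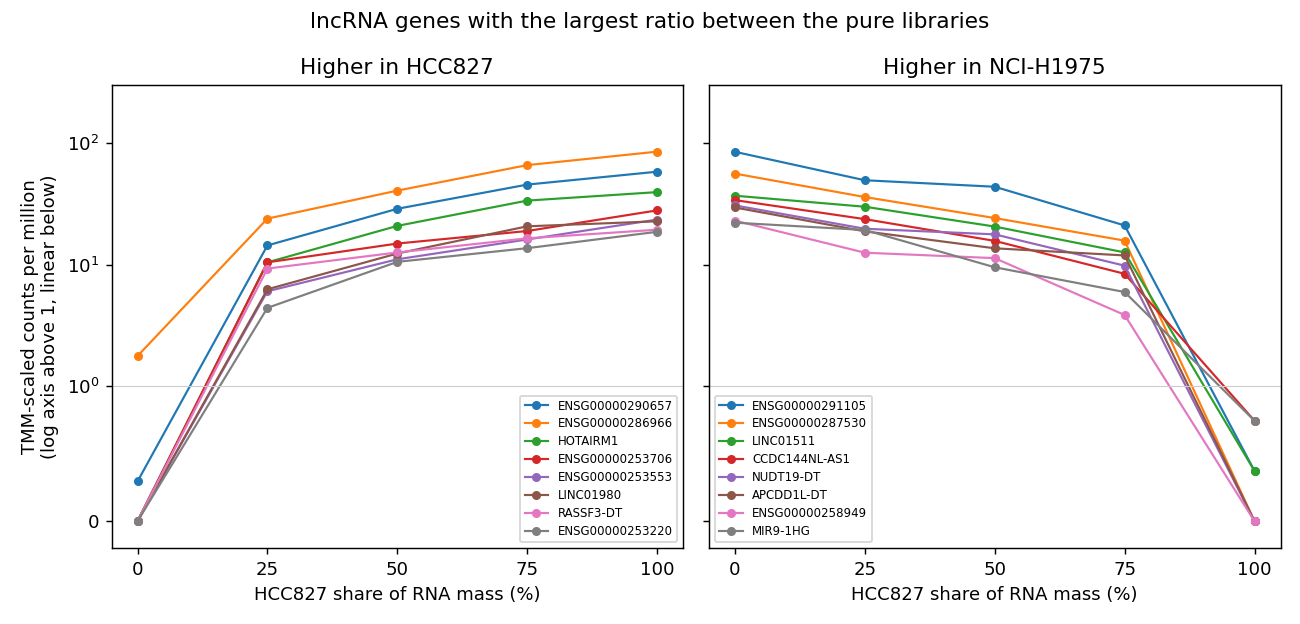
TMM-scaled CPM (y axis, log scale above 1 and linear below) of the 16 named lncRNA genes against the HCC827 share of RNA mass (x axis, percent), 1 point per library. The left panel shows genes higher in HCC827 and the right panel genes higher in NCI-H1975, where ENSG00000291105 goes from 84.6 to 0.372.

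The members with most reads mostly lay under coding exons, where reads from either gene cannot be told apart because the use of strand in counting was not stated. ENSG00000264772 had 331, 422, 478, 495 and 611 CPM from the 100:0 to the 0:100 library, with 86.8% of its leading transcript under same-strand coding exons. Its overlapped partner was EIF4A1, a translation initiation helicase, though the 86.8% counts exons of any coding gene. The lncRNA had a slope of 0.80 and EIF4A1 one of 0.72. ENSG00000269968 lies wholly under coding exons on the opposite strand, with the gene of the glycolytic enzyme GAPDH as its partner. It had 193, 330, 367, 364 and 642 CPM and a slope of 1.44, beside 1.83 for GAPDH. TUBA1B-AS1 lies wholly under opposite-strand exons, counted over all coding genes, and had 344, 357, 360, 385 and 350 CPM. Its leading transcript matched TUBA1B, an alpha tubulin gene, over 64.1% of its length. Neither TUBA1B-AS1 (slope 0.07, edgeR adjusted p = 0.672) nor TUBA1B (slope 0.21, edgeR adjusted p = 0.137) passed the test. PCBP1-AS1, with 64.8% of its leading transcript opposite PCBP1, an RNA-binding protein gene, had 147 CPM in the 100:0 and 239 in the 0:100 library and rose with a slope of 0.67, and its call was lost with scaling by library totals (adjusted p = 0.124).
A pair of the 6 lay apart from coding exons but had close copies. FAM153CP had 140, 211, 285, 364 and 368 CPM. Its leading transcript matched FAM153A, a coding gene with 0 reads, at 92.6% identity over 56.9% of its length. ENSG00000286834 had 280, 233, 198, 174 and 146 CPM (slope -0.92), and matched ENSG00000286147 on another chromosome at 96.4% identity over 91.6% of its length. A match of at least 90% identity over at least 50% of the leading transcript was found for 334 members, of which 318 matched a gene with at least 10 reads. Not all are copies elsewhere in the genome. Matches at another locus were counted for 147 members and matches at an overlapping locus, on either strand, for 188. The called share was 30.8% for those 318 members and 34.9% for the other 885.

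Slopes of lncRNA genes tracked those of the coding genes they overlapped. Over 430 antisense members and their overlapped coding genes, Pearson's r across pairs was 0.533 (Spearman's rho 0.537) and 301 pairs (70.0%) had the same sign. Over 91 same-strand pairs r was 0.615 and 71 pairs (78.0%) had the same sign. These are descriptions across genes that share libraries and, at overlapping exons, possibly reads. For antisense members with at least 50% of the transcript under coding exons r was 0.729 over 164 pairs, and for those with less it was 0.463 over 266 pairs. Where both genes were called, 77 of 85 antisense pairs and 19 of 20 same-strand pairs had the same sign.

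The likeness was slight where no exon was shared. Over 84 divergent pairs r was 0.063 (rho 0.165), with the same sign in 49 (58.3%). Over 504 members and their nearest coding gene r was 0.149 (rho 0.143), with the same sign in 285 (56.5%). With at least 100 reads for the lncRNA, r was 0.059 over 34 divergent pairs, 0.197 over 202 nearest-gene pairs and 0.602 over 203 antisense pairs. Spearman's rho was 0.270 over those divergent pairs and 0.204 over the nearest-gene pairs, so the order of those classes depends on the measure. Both genes were called in 12 divergent pairs, and 8 had the same sign.
HHLA3, at 15.6, 21.1, 29.0, 43.7 and 57.3 CPM, rose with ANKRD13C, whose start lies 52 bases away (slopes 1.92 and 1.25). ZNF528-AS1, at 61.6, 56.8, 55.2, 34.3 and 23.8 CPM, fell with the zinc finger gene ZNF528 (slopes -1.28 and -1.90). Opposite calls were made in 4 divergent pairs, among them those of NUDT19-DT, TRIM52-AS1 and RYR3-DT, the last 2 named after their values were seen. TRIM52-AS1 rose (slope 1.52, reads of 19, 49, 64, 62 and 48) and TRIM52, a ubiquitin ligase gene, fell (slope -1.46). RYR3-DT had 1, 11, 21, 20 and 25 reads and a slope of 3.06, and the calcium channel gene RYR3 had a slope of -2.43. C2orf74-DT did not pass (slope -0.18, edgeR adjusted p = 0.519) beside C2orf74 at -1.19. With library totals C2orf74-DT fell (slope -0.59, edgeR adjusted p = 0.0344).

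**Figure D4:**
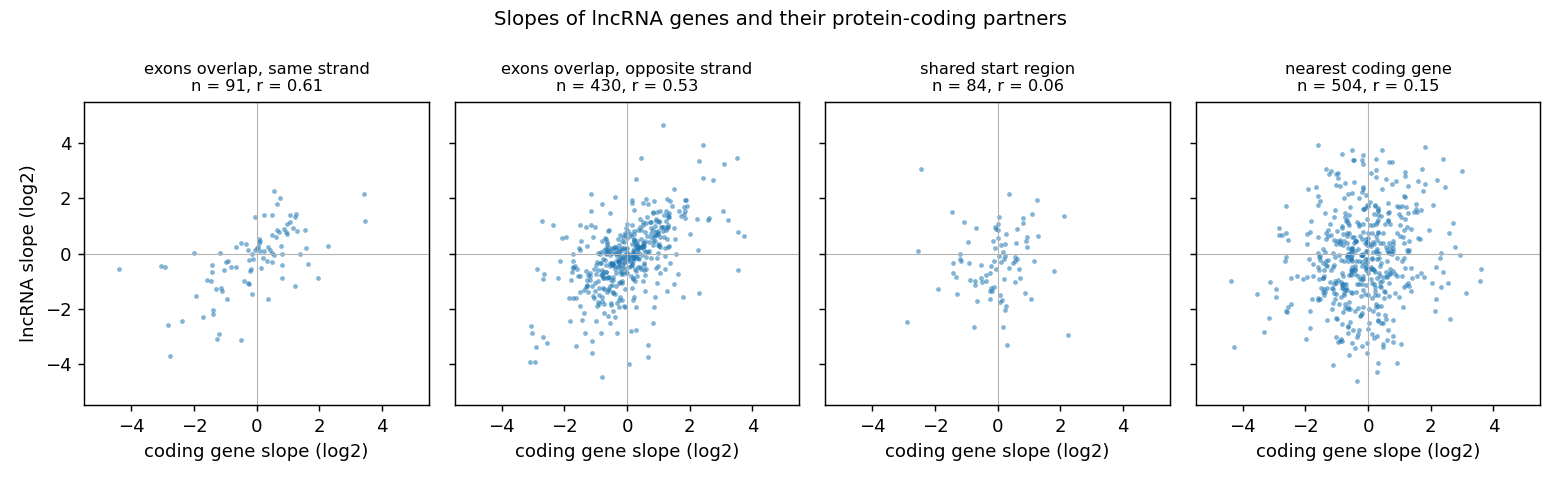
Slope of each lncRNA gene (y axis, log2 difference from 0 to 100% HCC827) against the slope of its protein-coding partner (x axis, same unit), 1 point per pair, in 4 panels by position. Points follow the diagonal in the panels with shared exons (r of 0.615 and 0.533) and little in those without (0.063 and 0.149).

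Of 19 microRNA host genes among the members, 2 rose, 6 fell and 11 did not pass the test (42.1% called, against 45.8% of all genes), with a median slope of -0.57. MIR200CHG, the host of miR-200c and miR-141, which are known to maintain the epithelial state by repressing ZEB factors, had 4.71, 8.57, 16.2, 18.5 and 26.4 CPM. It rose 5.60-fold, with a slope of 2.26 ± 0.33 (edgeR adjusted p = 1.31e-04). Its closest coding gene, the prohibitin gene PHB2, also rose (slope 1.75). MIR205HG, the host of miR-205, an epithelial microRNA, ran the other way with 49.8, 43.1, 36.4, 31.8 and 21.6 CPM, 2.31-fold lower in HCC827 (slope -1.09 ± 0.20, edgeR adjusted p = 6.19e-04). Its closest tested coding gene, the laminin gene LAMB3, lay about 182000 bases away and fell as well (slope -0.85). The hosts of these epithelial microRNAs thus differed in direction between the lines.
MIR9-1HG fell from 75 and 83 reads to 37, 17 and 2. MIR9-3HG, a second source of miR-9, had 14, 10, 9, 6 and 0 reads and did not pass (slope -2.32, edgeR adjusted p = 0.0585).
MIR210HG, the host of the hypoxia-induced miR-210, had a slope of -1.94, MIR193BHG one of -1.58, MIR100HG one of -1.22 and MIR4458HG one of -0.59. MIR497HG had 22, 40, 37, 30 and 44 reads and rose (slope 1.14). The coding gene it overlaps on the opposite strand, C17orf49, had a slope of 1.01. With 38.1% of the leading MIR497HG transcript under coding exons, reads from either gene cannot be told apart there. These 5 calls were lost by the DESeq2 Wald test (adjusted p of 0.0569 to 0.127), and each was also lost without the 0:100 library (edgeR adjusted p of 0.0952 to 0.266). That of MIR497HG was also lost with library totals (edgeR adjusted p = 0.0923). All but that of MIR100HG were lost without the 100:0 library, and that of MIR4458HG also without the 75:25 or the 25:75 library and that of MIR193BHG without the 50:50 library. Among the hosts with the let-7 seed, MIRLET7A1HG (slope 0.53, edgeR adjusted p = 0.445) and MIRLET7BHG (slope 1.07, edgeR adjusted p = 0.0897) did not pass.

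A list of 18 lncRNAs of the HOX clusters, which pattern the body axis, had 5 members, and 3 of them rose (60.0%, where 23.5% of all genes rose). HOXA-AS2 had 0, 15, 30, 34 and 33 reads (slope 3.26, edgeR adjusted p = 0.00294), and HOXA3, whose exons it overlaps, had a slope of 3.10. With HOTAIRM1 this made 2 HOXA lncRNAs that had no read in the NCI-H1975 library, which allows up to 3 reads. HOXC-AS2 had 4, 5, 12, 7 and 13 reads and a slope of 2.05 (edgeR adjusted p = 0.0371). Its call was lost by the DESeq2 Wald test (adjusted p = 0.117), with library totals or no read filter (edgeR adjusted p = 0.0793 and 0.0573) and without the 100:0, 75:25 or 0:100 library (edgeR adjusted p = 0.108, 0.118 and 0.256). HAGLR in the HOXD cluster (6, 5, 17, 10 and 7 reads) and HOXC-AS3 (8, 10, 5, 10 and 14 reads) did not pass. HOTAIR and HOTTIP were among the 13 genes of the list below the read minimum.

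Of a list of 42 well-studied lncRNAs, 27 were members, and 9 of them passed the test, 5 rising and 4 falling (33.3%, against 45.8% of all genes, with a median slope of 0.04). NORAD, a cytoplasmic RNA that binds PUMILIO proteins, had 178, 179, 159, 137 and 99.7 CPM and fell 1.79-fold (slope -0.80 ± 0.15, edgeR adjusted p = 9.04e-04). CRNDE, named for its high level in colorectal neoplasia, fell 3.76-fold, from 44.8 through 27.8, 24.1 and 16.4 to 11.9 CPM, and the homeobox gene next to it, IRX5, also fell (slope -2.48). OIP5-AS1, which contains a long site for miR-7, fell 2.22-fold from 72.5 through 62.8, 50.0 and 44.4 to 32.7 CPM.
At the X-inactivation centre, FTX had 47.7, 37.5, 33.4, 26.9 and 22.7 CPM and fell (slope -1.05, edgeR adjusted p = 6.78e-04). JPX, on the other strand in the same region, had 35.9, 39.4, 34.9, 46.8 and 47.6 CPM and did not pass (slope 0.42, edgeR adjusted p = 0.0913). The neighbouring genes thus gave slopes of opposite sign, of which 1 passed.
CYTOR had 76.6, 81.8, 93.4, 108 and 136 CPM and rose 1.77-fold (slope 0.83, edgeR adjusted p = 2.69e-04). Its copy MIR4435-2HG, with 98.8% identity over 97.4% of the CYTOR transcript, had 179, 166, 162, 169 and 183 CPM and did not pass (slope 0.04). Reads can be assigned to either copy, so the levels of both are uncertain.

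NKX2-1-AS1 lies opposite NKX2-1, the lung lineage transcription factor, and had 4, 9, 12, 15 and 17 reads. It rose with a slope of 2.34 (edgeR adjusted p = 0.00711), as NKX2-1 did with 1377 reads (slope 1.5). Of its leading transcript 22.6% lay under coding exons on the opposite strand. FOXD2-AS1 (slope 2.54), LINC00342 (slope 1.60) and VPS9D1-AS1 (slope 1.02) rose as well. Without the 100:0 library none of those 3 was called (edgeR adjusted p = 0.108, 0.181 and 0.119), FOXD2-AS1 was also lost without the 75:25 library (0.0644) and LINC00342 without the 25:75 library (0.0523). LINC00342 and VPS9D1-AS1 were also lost with library totals (edgeR adjusted p = 0.0544 and 0.0758). LINC00342 has a copy, APPAT, at 96.5% identity. Among the 18 members of the list that did not pass, AFAP1-AS1, an antisense transcript of an actin filament gene, had 103, 98.2, 115, 107 and 125 CPM, and the imprinted antisense transcript KCNQ1OT1 had 13.9, 14.1, 9.75, 9.44 and 10.4 CPM. With library totals MIR4435-2HG fell (slope -0.37, edgeR adjusted p = 0.0228). So did 5 others of the 18: KCNQ1OT1 (slope -1.01, edgeR adjusted p = 0.0212), TP53TG1 (-0.68), LINC00511 (-1.06), LINC00460 (-1.48) and LINC00857 (-1.62).

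**Figure D5:**
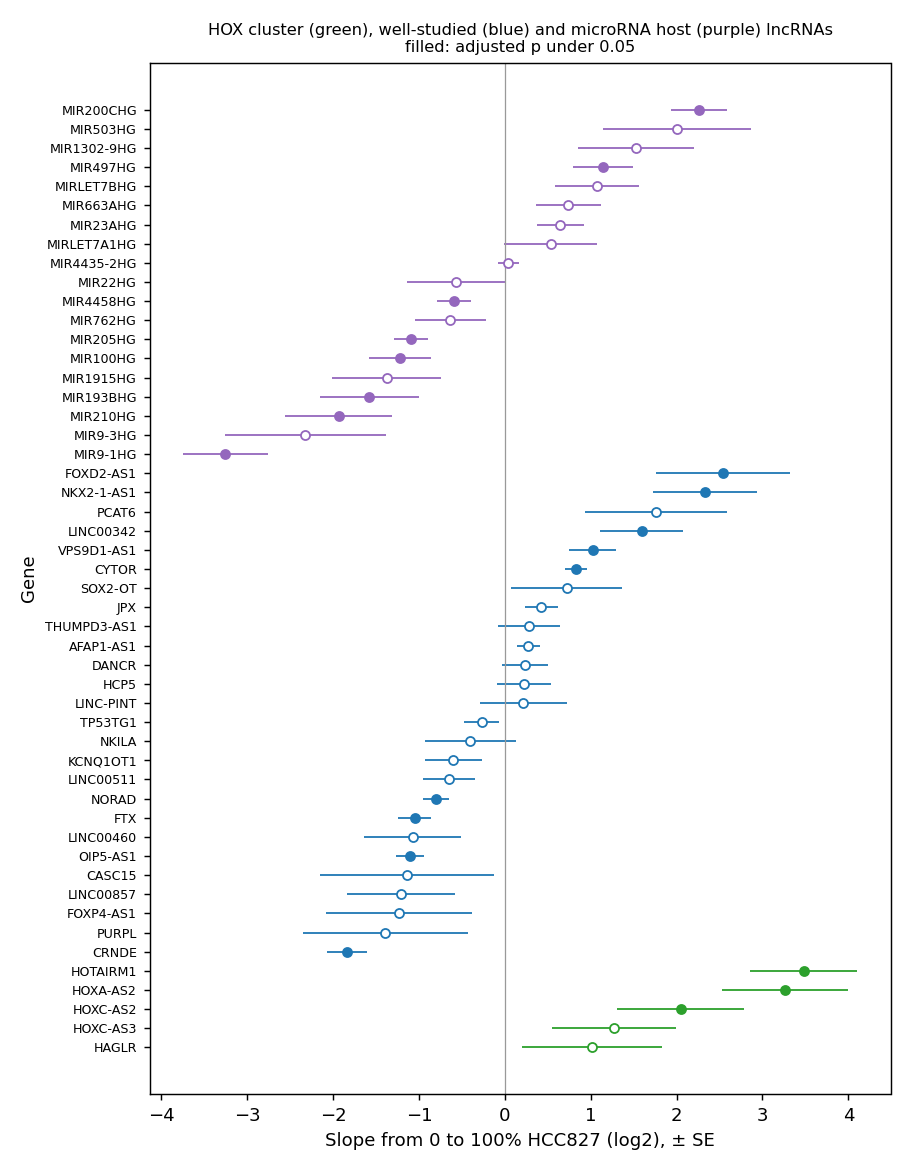
Slope from 0 to 100% HCC827 (x axis, log2, with its standard error as a bar) of each lncRNA of 3 lists (y axis), with HOX cluster genes in green, well-studied genes in blue and microRNA hosts in purple. Filled points passed an adjusted p of 0.05, as for HOTAIRM1 at 3.48 and CRNDE at -1.84.

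More than 1 transcript was listed for 762 members, and the leading transcript held a median of 55.7% of their reads. Of 175 members with at least 2 transcripts above the read minimum, 0 passed the edgeR test of relative transcript use with Simes p-values (0.402% of 7455 genes passed), 9 had an unadjusted p under 0.05 (5.14%, against 3.86% of all genes), and 1 passed by the gene-level F test. The lowest adjusted p was 0.235. It belonged to LINC00665, where transcript LINC00665-209 held 71.4, 67.1, 46.2, 33.3 and 33.8% of the reads of its tested transcripts from the 100:0 to the 0:100 library and LINC00665-206 held 23.2, 20.5, 33.8, 47.0 and 47.7%. The tested LINC00665 transcripts had 56 to 80 reads per library, which limits what could be detected.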

How the data were processed

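Poly(A)-selected RNA of the cell lines NCI-H1975 and HCC827 was mixed at 5 mass ratios and read as PCR cDNA on a nanopore instrument, with 1 library per ratio. The authors deposited 1 table per library with an estimated count of reads per transcript, unscaled. The submitters' processing notes name GRCh38, minimap2 2.24 and Salmon 1.9.0, with no role or order. The annotation release and the use of strand in counting are not given in the sources used here. The 2 deposited estimated counts that were not whole were rounded, 161 repeated identifiers were summed, and 224076 of 227751 transcripts (98.6% of human reads) were matched to GENCODE v44 genes, whose GRCh38 coordinates (1-based) are printed. Totals were 2932250 to 4058751 reads. PCR copies count as separate reads, since no molecular identifiers were given, so intervals (exact Clopper-Pearson, 95%) and the floor of 3 reads for a count of 0 cover counting error only.

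Genes with at least 10 reads in at least 2 libraries were tested by the edgeR 4.0.16 quasi-likelihood test (R 4.3.3, TMM scaling) of the slope on the HCC827 fraction, with Benjamini-Hochberg adjustment over 13492 genes and a threshold of 0.05. A straight line on the log scale understates the difference between the ends for genes near 0 in 1 line. Relative transcript use was tested with diffSpliceDGE, and DESeq2 1.42.0, other scalings, other filters and leaving out single libraries were alternatives. The script was tested on simulated data. Leading transcripts were compared with all GENCODE v44 transcripts by minimap2 2.31. Members and lists were chosen with earlier results of these data known. Named genes were the 8 called members per direction in strict order with the largest ratio, the 6 with most reads, members of 2 lists, the 3 microRNA hosts and the 4 divergent pairs with most reads, and up to 3 genes with the lowest p for transcript use. Other microRNA hosts and pairs were named after their values were seen. Promoters were matched in RefSeq (GRCh38.p14) for 450 members. A few items that the rule would name are not reported here.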

Additional observations from a re-analysis of the deposited data

How the results depend on the processing

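The count of 407 called lncRNA genes was 207 with at least 10 reads in all 5 libraries (550 tested, 181 shared with the 407), 233 for members without exon overlap, 275 by the DESeq2 Wald test (273 shared), 397 with no read filter (380 shared), 410 with DESeq2 size factors and 476 with library totals (343 shared). Leaving out 1 library gave 221 to 397 calls, and no shared call changed sign under any of these. The 214 members at least 4-fold apart became 53 with a floor of 10 reads (32 higher and 21 lower in HCC827), 133 without exon overlap and 562 at 2-fold, and 247 with library totals (61 higher, 186 lower). The share in order was 37.5% at 2-fold, 70.7% with at least 100 reads and 57.1% with library totals. The slope of the read share ran from -0.388 to -0.335 points over the libraries left out in turn, -0.330 with nuclear genes as the total and -0.369 without the 10 members with most reads. These slopes all rest on unscaled totals, and none was fitted with TMM-scaled library sizes. The isoform test called 0 members with each library left out and 1 by the gene-level F test. No paired analysis was possible because each ratio had 1 library.

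Of the named genes, none that was called in the report reversed under the alternatives run. With library totals the slope was of opposite sign for TUBA1B-AS1 (-0.34), MIR4435-2HG (-0.37), THUMPD3-AS1 (-0.13), AFAP1-AS1 (-0.13), DANCR (-0.17), HCP5 (-0.18), LINC-PINT (-0.19), LINC00665 (-0.002) and MFSD14CP (-0.25), of which TUBA1B-AS1 and MIR4435-2HG had an edgeR adjusted p of 0.0255 and 0.0228. It was -0.014 for MIR4435-2HG with 10 reads in all 5 libraries. With 1 library left out, slopes ran from -0.12 to 0.22 for MIR4435-2HG, -0.44 to 0.52 for THUMPD3-AS1, -2.32 to 0.021 for PURPL and -0.23 to 0.31 for MFSD14CP, of opposite sign without the 0:100 library, and from -0.19 to 0.62 for DANCR and -2.01 to 0.21 for LINC00857, of opposite sign without the 100:0 library. The cause was not tested. A median of 86 reads per member limits what could be called, and 1 RNA preparation per line leaves differences between cultures unmeasured.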

Other observations

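Chromosomes differed in the median slope of their lncRNA genes. Over 23 chromosomes the medians of lncRNA and protein-coding genes had a Pearson's r of 0.324 and a Spearman's rho of 0.339, which are descriptions over chromosomes with 13 to 97 members. Chromosome 19 stood at a median of -0.81 over 97 members, of which 38 were called (39.2%, with 6 rising and 32 falling, against 45.8% of all genes and 57.6% of its protein-coding genes), while its 917 protein-coding genes had a median of 0.09. Zinc finger genes were taken by name alone (starting ZNF or ZFP), so others, such as ZSCAN genes, count as other genes here. Members whose partner was so named numbered 33, of which 13 were called, all falling, with a median of -1.26. Their 29 partners had a median of -1.52, and the 209 coding genes so named on the chromosome had one of -1.25 (8 rose and 110 fell). The 59 members with other partners had a median of -0.35, with 6 rising and 18 falling, beside 0.40 for the other 708 coding genes. ZNF542P, a zinc finger pseudogene transcribed as a lncRNA, had 185, 187, 121, 49 and 34 reads from the 100:0 to the 0:100 library and a slope of -2.15. Its partner was ZSCAN5A, so it counts among the 59. ENSG00000268205, next to ZNF543, had 231, 269, 176, 102 and 29 reads and a slope of -2.03. Both were named after their values were seen.

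Chromosome 21 had the highest median, 0.98 over 29 members against -0.03 for its 109 protein-coding genes, with 17 called (58.6%, against 34.9% of its protein-coding genes; 14 rose and 3 fell). Of the 29, 11 lie within the first 10 Mb, and 10 of these had a similar transcript of another of them. ENSG00000280800 (49, 70, 90, 78 and 98 reads), ENSG00000280614 (55, 88, 100, 92 and 100 reads) and ENSG00000281181 (38, 82, 87, 68 and 109 reads) are such copies, with slopes of 1.38, 1.21 and 1.58, and how reads were divided among them is uncertain. Position was classed against protein-coding exons only. Whether these copies hold reads of overlapping RNA genes of other types was not tested. The 18 members elsewhere on the chromosome had a median of 1.09, with 8 rising and 1 falling. One that fell on chromosome 21 was LINC00313, with 58, 45, 28, 16 and 1 reads and a slope of -3.03. The chromosomes and genes here were picked after their values were seen, and no test was made between chromosomes.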
